A study of Mus musculus with 147 samples.

Results

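Round spermatids at PND35 and in the adult were taken as the wild-type testis cells in which Acrv1, the gene of an acrosomal vesicle protein, reached at least 100 CPM, where CPM is the UMI count of a gene per 1000000 UMIs of that cell and a UMI is the tag that marks 1 captured mRNA molecule. The rule kept 268 of the 1523 PND35 and adult cells that had more than 2000 detected genes and between 10000 and 1000000 UMIs, out of 1592 such cells sequenced and of 11598 wild-type cells past the same filter in the whole series. All cells came from the offspring of C57BL/6 females and males carrying the Blimp1-mVenus and Stella-ECFP reporter transgenes, untreated, at postnatal day 35 or as adults of 8 to 10 weeks, and they were profiled by a modified STRT-seq protocol, which counts tagged 3′ ends. At these ages cells with the look of germ cells were picked at random from dissociated testes by mouth pipette, so that every share of cells below describes picked cells rather than the testis. The wild-type PND30 cells, from the same cross, numbered 1041, of which 286, 277 and 286 had been sorted by Hoechst staining into gates of 1N, 2N and 4N DNA content, a criterion that reads no transcript, and 192 cells of replicate 2 carried no gate. A pool below means all cells of 1 time-point and 1 replicate, and the study described the replicates of each time-point as independent biological ones, with 1 animal for each of those used here.

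Round spermatids are the haploid cells left by the second meiotic division. In them the Golgi builds the acrosome, the vesicle of enzymes and membrane proteins that caps the nucleus and serves at fertilisation, the axoneme of the tail begins to grow, and genes of the sex chromosomes, silenced as a body in pachytene spermatocytes, are read again in part. As spermatids elongate, transition proteins and then protamines replace the histones, from mRNAs that are made early and stored before they are translated.

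Acrv1 chose the cells, and Tex36, Spag6 and Prm1 were the other markers given for this cell type. Their promoters are shown because these are the genes that define and order the cells, from 250 bases before to 50 bases after the RefSeq start on GRCm38.p6, written 5′ to 3′ along the gene. Capitals mark the matches to 4 motifs searched on both strands: the cAMP response element TGACGTCA, its 5-base part TGACG, the 6-base part GTTGCC of the X-box, and the TATA box TATAAA, of which the first 2 can overlap.

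Acrv1, chr9:36692970-36693269, plus strand: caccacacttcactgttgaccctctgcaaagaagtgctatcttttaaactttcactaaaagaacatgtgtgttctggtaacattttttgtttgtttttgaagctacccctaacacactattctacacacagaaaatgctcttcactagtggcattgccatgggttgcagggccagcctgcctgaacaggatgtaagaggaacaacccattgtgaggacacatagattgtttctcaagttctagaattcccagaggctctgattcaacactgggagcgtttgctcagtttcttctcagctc
Tex36, chr7:133602066-133602365, minus strand: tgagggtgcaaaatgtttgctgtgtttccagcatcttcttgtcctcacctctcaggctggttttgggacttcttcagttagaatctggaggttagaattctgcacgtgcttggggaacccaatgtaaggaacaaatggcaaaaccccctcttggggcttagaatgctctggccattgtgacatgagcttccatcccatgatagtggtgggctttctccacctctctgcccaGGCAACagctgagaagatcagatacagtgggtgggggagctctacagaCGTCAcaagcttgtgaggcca
Spag6, chr2:18698772-18699071, plus strand: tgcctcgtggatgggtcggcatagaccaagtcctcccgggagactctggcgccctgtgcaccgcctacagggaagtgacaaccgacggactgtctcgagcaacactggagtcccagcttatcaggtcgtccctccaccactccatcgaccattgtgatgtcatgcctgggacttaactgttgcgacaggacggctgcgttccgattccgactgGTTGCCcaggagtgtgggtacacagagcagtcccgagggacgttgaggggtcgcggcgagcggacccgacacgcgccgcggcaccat
Prm1, chr16:10796774-10797073, minus strand: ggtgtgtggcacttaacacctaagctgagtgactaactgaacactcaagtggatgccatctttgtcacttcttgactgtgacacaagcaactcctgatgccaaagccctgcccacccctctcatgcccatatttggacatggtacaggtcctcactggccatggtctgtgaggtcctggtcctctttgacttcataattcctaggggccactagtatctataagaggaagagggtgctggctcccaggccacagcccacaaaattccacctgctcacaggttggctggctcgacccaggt

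Tex36 held GTTGCC on the opposite strand at position -19 and TGACG on the opposite strand at position 30, and Spag6 held GTTGCC at position -37, counted from the start. The other windows held none of these letters, which says nothing about any factor. The motif GTTGCC was present in 20.2% of the promoters of genes at least 2-fold higher in round spermatids, in 11.8% of those of genes at least 2-fold lower and in 14.6% of those of all detected genes, over 2847, 1148 and 18275 promoters. TGACG was in 23.0%, 33.7% and 26.5% of the same promoters, TGACGTCA in 2.92%, 2.79% and 2.67%, and TATAAA in 12.9%, 8.45% and 13.6%.

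Acrv1 fell into a high and a low range in single cells, with few cells between. Of the 1523 cells, 365 were below 10 CPM, 310 from 10 to 25 CPM, 355 from 25 to 50 CPM and 225 from 50 to 100 CPM. Above the threshold 41 cells lay between 100 and 150 CPM, 41 between 150 and 250 CPM, 110 between 250 and 400 CPM and 76 at 400 CPM or more. The 44 cells just outside the threshold, at 80 to 100 CPM, had medians of 44.6 CPM Tex36, 39.4 CPM Spag6, 67.3 CPM Spaca1 and 165 CPM Hormad1. The 23 cells just inside it, at 100 to 125 CPM, had medians of 62.1 CPM Tex36, 72.7 CPM Spag6, 102 CPM Spaca1 and 192 CPM Hormad1. Hormad1, a chromosome axis protein of meiotic prophase, was present on both sides of the threshold. The medians of Tex36, Spag6, Spaca1, Hormad1 and Sycp3 were higher inside it, Sycp3 at 45.3 against 35.0 CPM, and those of Prm1 and Ccna1 lower, Prm1 at 267 against 286 CPM.

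**Figure D1:**
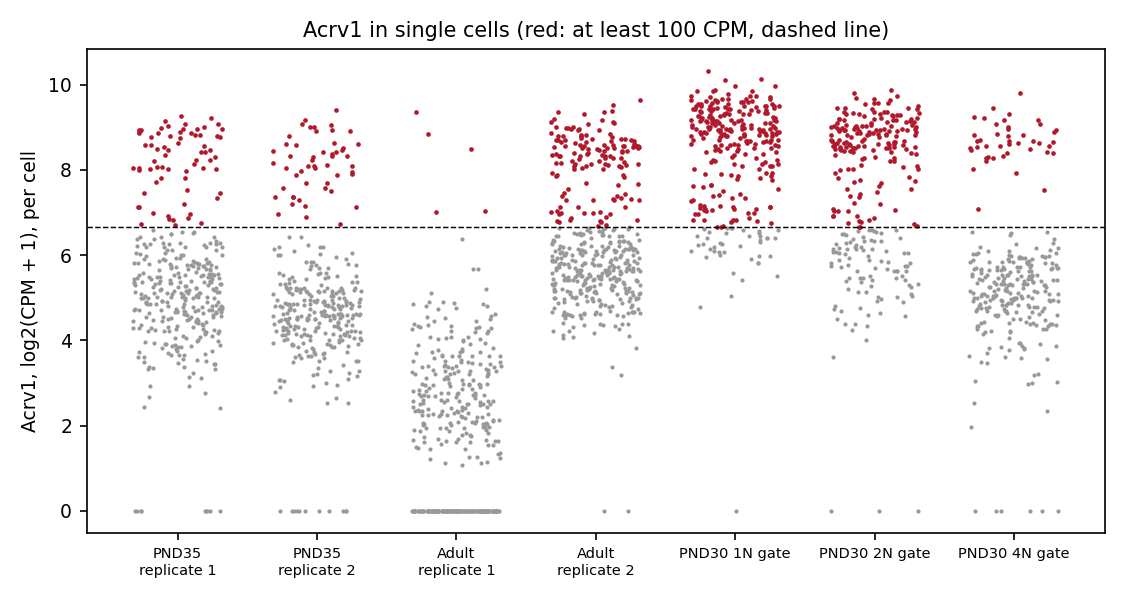
Each point is 1 cell, plotted by pool or PND30 gate along the x axis and by Acrv1 as log2(CPM + 1) on the y axis. Red points reach 100 CPM, the dashed line, and they are 70 of 367, 52 of 332, 5 of 377 and 141 of 447 cells in the PND35 and adult pools.

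The members were spread unevenly over the pools. PND35 replicate 1 gave 70 of 367 cells, or 19.1% with an exact Clopper-Pearson 95% interval of 15.2 to 23.5%, and PND35 replicate 2 gave 52 of 332, or 15.7%, interval 11.9 to 20.03%. Adult replicate 2 gave 141 of 447 cells, or 31.5%, interval 27.3 to 36.1%, while Adult replicate 1 gave 5 of 377, or 1.33%, interval 0.432 to 3.07%. The adult pools differed from each other by more than either differed from PND35, so that no difference in share between the time-points can be read. The intervals cover counting error only. Between 13.2 and 21.4% of the cells in each PND35 library were members, 19.6 to 44.6% in each library of Adult replicate 2 and 0 to 3.16% in each of Adult replicate 1. Across the 17 libraries the same 96 cell barcodes were used again, 96 of 96 in more than 1 library.

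The members were deeply sequenced, with a median of 445892 UMIs and 12217 genes per cell in PND35 replicate 1, 480393 UMIs and 12629 genes in PND35 replicate 2, and 386847 UMIs and 12028 genes in Adult replicate 2. Their summed UMIs came to 31794693, 25936596 and 58367216. The 5 cells of Adult replicate 1 held 2356385 UMIs and stood apart from the rest in markers of somatic cells, with 1561 CPM summed over 12 Sertoli genes and 2210 CPM over 10 Leydig and peritubular genes, against 49.2, 97.7 and 66.5 CPM and 19.1, 19.4 and 13.6 CPM in the other pools. The other cells of that pool carried them as well, at 1309 and 1325 CPM. With fewer than 10 members it was left out of the sums, and its values are given beside the results that they touch.

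The other markers of the label followed Acrv1. Tex36 stood at 315, 287 and 328 CPM in the round spermatids of PND35 replicate 1, PND35 replicate 2 and Adult replicate 2, against 25.8, 18.0 and 30.1 CPM in the other cells of those pools. Spag6, a protein of the central apparatus of the axoneme, stood at 335, 327 and 383 CPM against 21.5, 19.6 and 28.7 CPM. The groups did not overlap for either gene, and the share of all genes without overlap is not given here. Spag6l, the near-identical copy of Spag6, stood at 314, 334 and 311 CPM against 393, 398 and 407 CPM, and reads that the 2 copies share cannot be assigned with certainty. Prm1, the first protamine, separated the cells least, at 444, 421 and 598 CPM against 196, 201 and 353 CPM.

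The label was also read against markers of other cells. The spermatocyte markers Sycp3, Sycp1, Spo11, Hormad1 and Ccna1 summed to 719, 792 and 747 CPM in the round spermatids and to 1129, 1170 and 1105 CPM in the other cells, so that they were lower in each pool but far from 0. Sycp3, the axial element protein of the synaptonemal complex, stood at 26.4, 26.2 and 22.5 CPM against 76.7, 61.2 and 69.6 CPM. Ccna1, a cyclin of late spermatocytes, stood at 263, 294 and 254 CPM against 279, 253 and 268 CPM, with overlapping groups. The spermatogonial markers Zbtb16, Gfra1, Kit and Etv5 were higher as a sum, at 79.95, 57.95 and 80.4 CPM against 6.38, 7.66 and 9.48 CPM. Etv5 stood at 23.4, 8.21 and 26.2 CPM against 1.66, 1.18 and 3.04 CPM, while the groups overlapped for Zbtb16. Blood and endothelial genes summed to 18.3, 11.8 and 25.5 CPM over 12 genes. Of the Sertoli markers, Sox9 and Amh were at most 1.41 and 0.189 CPM in these sums of round spermatids. Amh was as low in Adult replicate 1, at 0.0 CPM in its members and 0.616 CPM in its other cells, so it is no guide here. Clu stood at 8.71, 16.1 and 6.91 CPM against 9.20, 6.59 and 6.28 CPM in other cells. Cldn11 stood at 1.54, 2.51 and 1.34 CPM against 1.95, 1.95 and 1.32 CPM. Insl3, which defines Leydig cells, was at most 0.315 CPM, against 376 CPM in the 5 cells of Adult replicate 1.

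The DNA content gates of PND30 gave a check of the Acrv1 threshold in cells that the rule did not use. At 100 CPM, 243 of 286 cells sorted as 1N were Acrv1-high, or 85.0% (exact interval 80.3 to 88.9%), with 84.9% in replicate 1 and 85.1% in replicate 2. Of the 2N cells 180 of 277 passed, or 65.0%, and the replicates differed, at 74.6% and 44.3%. Of the 4N cells 44 of 286 passed, or 15.4%, with 19.4% and 7.37%. The order of the gates, 1N over 2N over 4N, held in both replicates. Beside the 243 passing 1N cells, 180 passing cells were sorted as 2N and 44 as 4N. Many Acrv1-high cells were thus not haploid by their gate, and the reason was not tested. Of the 192 cells without a gate 55 passed, or 28.7%. At PND10 to PND14, before haploid cells form, 3 of 1544 cells passed.

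Against the other cells of the same pools, round spermatids were marked by genes of the acrosome, the sperm surface, nuclear condensation and late spermatids, and by sex-linked genes. Of 27674 detected genes, 4154 were at least 2-fold higher on log2(CPM + 1) in each of the 3 pools, which is 15.0% of them, and 1529 were at least 2-fold lower, which is 5.53%. These counts describe the cells that the rule chose and carry no test, since Acrv1 was read in the same cells. The second count hangs on the threshold, with 4 genes lower when cells from 50 CPM were taken as members and 2498 when only cells from 250 CPM were.

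The test came from the gates. UMIs were summed over the PND30 cells of 1 gate and 1 replicate, and edgeR's quasi-likelihood test of 1N against 4N called 2697 of 19167 genes higher in 1N, or 14.1%, and 2377 lower, or 12.4%, at a Benjamini-Hochberg adjusted p under 0.05. The number of calls depended on the sums that entered. Without 1N replicate 2 0 genes passed by edgeR, where 6589 had an unadjusted p under 0.05, and without 4N replicate 2 1219 genes were called higher and 994 lower, whereas 3569 were higher and 3045 lower without 1N replicate 1 and 3390 and 1650 without 4N replicate 1. The gates of 1 replicate came from the same animal, and with the replicate as a block 3691 genes were called higher and 2467 lower. The 4N cells included the 15.4% that were Acrv1-high, which the 4N sums contain. Of the 4154 genes higher in round spermatids 4141 were tested at PND30, and 2179 of them (52.6%) were called higher in 1N and 0 lower. Of the 1529 lower genes 1528 were tested, and 1233 (80.7%) were called lower and 0 higher. With the replicate as a block, 2957 of the 4141 were called higher and 0 lower, and 1293 of the 1528 lower and 0 higher.

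**Figure D2:**
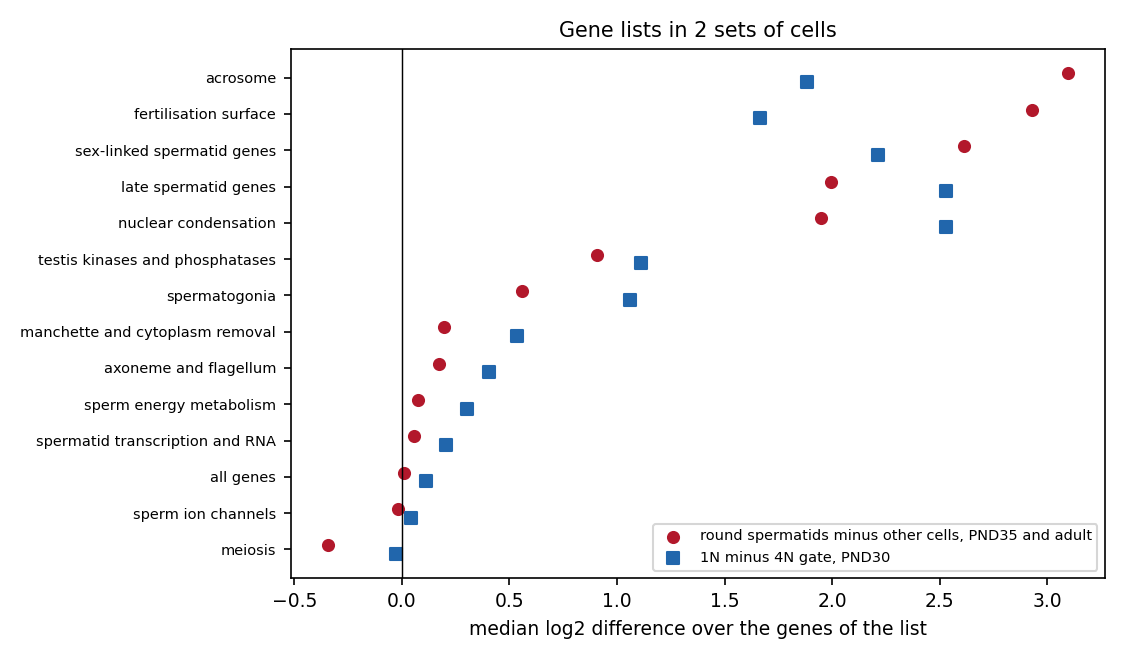
Each row is a gene list, with the median log2 difference over its genes on the x axis, as red circles for round spermatids minus other cells (mean over 3 pools) and as blue squares for the 1N minus the 4N gate of PND30. Acrosome genes stand at 3.10 and 1.89, while the median over all genes stands at 0.01 and 0.11.

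Among the lists, genes of the acrosome had the highest median difference between round spermatids and other cells. Between the PND30 gates they did not, with a median of 1.89 against 2.53 for nuclear condensation. Of 29 detected genes, Acrv1 included, 17 were at least 2-fold higher in round spermatids in each pool and 1 was lower, with a median log2 difference of 3.10 over the list, and at PND30 17 were called higher in 1N and 1 lower. Spaca1, a membrane protein that anchors the acrosome to the nucleus, stood at 390, 357 and 379 CPM in round spermatids and at 44.0, 37.5 and 45.4 CPM in other cells, and rose by 2.29 on the log2 scale from 4N to 1N (SE 0.39, edgeR adjusted p = 0.011, n = 2 sums per gate). Spam1, the hyaluronidase with which sperm cross the cumulus, was nearly absent from other cells, at 106, 104 and 134 CPM against 4.36, 3.32 and 6.47 CPM, and rose by 1.82 (SE 0.47, edgeR adjusted p = 0.0285). Eqtn, Zp3r, Hyal5, Lyzl4 and Lyzl6, further acrosomal proteins, showed mean log2 differences of 4.04, 3.89, 4.14, 3.78 and 3.90 over the 3 pools. The groups did not overlap for any of these 7 genes, which large differences in each pool make likely. The share of all genes without overlap is not given here.

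Other acrosomal genes missed the 2-fold rule. Acr, the gene of the protease acrosin, stood at 366, 356 and 349 CPM in round spermatids against 315, 333 and 308 CPM in other cells, and its log2 difference at PND30 was 0.29 (edgeR adjusted p = 0.329). Crisp2, a secreted acrosomal protein, stood at 683, 638 and 745 CPM against 733, 652 and 758 CPM, and Zpbp2 and Spink2 behaved likewise, with mean log2 differences of -0.05 and -0.17. Gopc, a Golgi protein needed for the fusion of vesicles into the acrosome, was the 1 gene of the list that was lower, at 19.8, 19.5 and 16.2 CPM against 66.4, 60.9 and 70.5 CPM, and it fell by 2.49 on the log2 scale at PND30 (edgeR adjusted p = 0.0103).

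Proteins of the sperm surface that act at fertilisation were split in the same way. Of 19 genes 11 were higher and 1 lower in round spermatids, with a median log2 difference of 2.93, and 9 were called higher and 2 lower in 1N. Izumo1, the sperm ligand of the egg receptor, stood at 158, 130 and 182 CPM against 7.69, 4.46 and 9.07 CPM, and rose by 2.06 at PND30 (SE 0.43, edgeR adjusted p = 0.0164). Llcfc1, also needed for fusion with the egg, reached 388, 355 and 439 CPM against 45.2, 34.6 and 70.6 CPM. Dcst1 and Spaca6, of the same fusion step, showed mean log2 differences of 4.30 and 3.67. The ADAM family genes Adam2, Adam3 and Adam5 were high in both groups, with mean log2 differences of -0.39, 0.14 and -0.08. Tex101, a chaperone of sperm surface proteins, was lower, at 198, 250 and 145 CPM against 419, 502 and 365 CPM, and fell by 1.80 at PND30 (edgeR adjusted p = 0.0106). Ly6k, a partner of Tex101, also fell at PND30, by 1.11 (edgeR adjusted p = 0.0207).

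Genes of nuclear condensation were higher, but with more signal in the other cells. Of 18 detected genes of 21 listed, 11 were higher and 1 lower, with a median log2 difference of 1.95, and at PND30 13 were called higher and 1 lower, with a median of 2.53. Hils1, a spermatid linker histone, stood at 397, 348 and 433 CPM against 56.5, 47.9 and 79.7 CPM. Chd5, a remodeller that acts at histone removal, stood at 111, 67.5 and 136 CPM against 7.72, 4.81 and 12.5 CPM. Tnp1, a transition protein, stood at 333, 277 and 432 CPM against 109, 90.2 and 178 CPM, a mean log2 difference of 1.49 ± 0.19 (SD, n = 3 pools). Prm1 missed the 2-fold rule at a mean of 1.00 ± 0.22, while at PND30 it stood at 1081 and 2030 CPM in the 1N sums and 214 and 252 CPM in the 4N sums, a rise of 2.93 (SE 0.36, edgeR adjusted p = 0.0103). Rnf8, a ubiquitin ligase of the DNA damage response, was the lower gene, at 16.1, 20.9 and 15.3 CPM against 38.5, 52.7 and 37.4 CPM.

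Of 38 genes of the axoneme and flagellum 10 were higher, 1 lower and 27 neither, with a median log2 difference of 0.17, and at PND30 12 were called higher and 3 lower, and 15 and 3 with the replicate as a block. The shares over all genes were 15.0% higher and 5.53% lower, and at PND30 14.1% and 12.4% without the block. Meig1, which spermatids need to assemble the flagellum, was at 1264, 1414 and 1267 CPM in round spermatids against 1298, 1378 and 1263 CPM. The outer dense fibre genes were split, with Odf2 and Odf4 at mean log2 differences of 0.16 and 0.15. Odf1, of the same fibres, stood at 260, 223 and 294 CPM against 31.9, 19.1 and 62.5 CPM, and rose by 2.36 at PND30 (SE 0.35, edgeR adjusted p = 0.0103). Akap3 and Ropn1, of the fibrous sheath, showed mean log2 differences of 3.12 and 2.92. The axonemal dynein heavy chain Dnah2 was lower, at 44.0, 36.6 and 38.8 CPM against 115, 75.7 and 117 CPM, and fell by 2.22 at PND30 (edgeR adjusted p = 0.0106).

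Genes of the CatSper channel, the calcium channel of the sperm tail, were of unlike pattern. Catsper1, a pore subunit, stood at 108, 67.6 and 117 CPM in round spermatids and 4.14, 2.16 and 4.96 CPM in other cells, a mean log2 difference of 4.38 ± 0.07 (SD, n = 3 pools), and rose by 1.69 at PND30 (SE 0.46, edgeR adjusted p = 0.0339). The pore subunits Catsper3 and Catsper4 showed mean log2 differences of 3.93 and 3.72, and rose by 2.03 and 2.13 at PND30. The pore subunit Catsper2 stood at 293, 273 and 278 CPM against 304, 263 and 290 CPM. The auxiliary subunits Catsperb, Catsperg1 and Catsperg2 showed mean differences of -0.60, -0.52 and -0.60, short of the 2-fold rule, and fell by 1.21, 1.41 and 1.35 at PND30 (edgeR adjusted p = 0.0272, 0.0294 and 0.0226). Of the whole list of 15 sperm ion channel genes 6 were higher and 0 lower in round spermatids, with a median of -0.02, and 6 were called higher and 4 lower among 14 tested at PND30.

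Of 12 testis kinases and phosphatases 6 were higher and 1 lower, with a median log2 difference of 0.91, and at PND30 6 were called higher and 1 lower. The higher genes included 5 of the TSSK family, the kinases of late spermatids, among them Tssk1 at 363, 328 and 400 CPM against 46.5, 36.3 and 68.1 CPM. The lower gene was Stk31, at 70.7, 74.7 and 62.2 CPM against 214, 234 and 212 CPM.

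Of 20 genes of sperm energy metabolism 4 were higher and 0 lower, with a median of 0.07, and at PND30 6 of 19 were called higher and 2 lower. The 4 of 20 lie near the 15.0% higher over all detected genes and are not read as a trait of the list. Over all genes 14.1% were called higher at PND30 and 12.4% lower. Ldhc, the testis lactate dehydrogenase, was abundant in both groups, at 1305, 1325 and 1268 CPM against 1482, 1440 and 1397 CPM, whereas the testis aldolases Aldoart1 and Aldoart2 showed mean log2 differences of 3.77 and 3.22. Slc2a3, a glucose transporter, stood at 339, 291 and 316 CPM against 622, 558 and 619 CPM and fell by 1.42 at PND30 (edgeR adjusted p = 0.0107). The glycolytic enzyme of the sperm tail Gapdhs stood at 72.7, 30.1 and 68.5 CPM against 5.36, 2.31 and 14.7 CPM.

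Of 25 genes of spermatid transcription and RNA handling 7 were higher and 1 lower, with a median of 0.05, and at PND30 6 were called higher and 3 lower. Over all genes 15.0% were higher and 5.53% lower, and at PND30 14.1% and 12.4%. Crem, the cAMP response factor of spermatids, stood at 379, 373 and 398 CPM against 286, 307 and 277 CPM, and its log2 difference at PND30 was 0.63 (edgeR adjusted p = 0.0634). The transcription factor genes Sox5 and Creb3l4 showed mean log2 differences of 3.94 and 2.77, and rose by 2.31 and 2.34 at PND30. Fhl5, a coactivator of Crem, showed 2.81 and rose by 2.51. Piwil1, the piRNA-binding protein of pachytene spermatocytes and spermatids, stood at 140, 119 and 143 CPM against 368, 354 and 392 CPM, and fell by 2.83 at PND30 (SE 0.31, edgeR adjusted p = 0.0103).

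Of 18 genes of the manchette, the microtubule skirt that shapes the nucleus, and of cytoplasm removal 4 were higher and 0 lower, with a median of 0.19, and at PND30 5 were called higher and 0 lower. Here too 4 of 18 lie near the 15.0% higher over all detected genes, with 14.1% called higher at PND30. Klhl10, a ubiquitin ligase adaptor of spermatids that the RNA list holds too, stood at 271, 252 and 293 CPM against 23.3, 18.1 and 36.8 CPM. Hook1, which links the manchette to its cargo, stood at 216, 175 and 241 CPM against 174, 169 and 192 CPM, with a difference of 0.91 at PND30 (edgeR adjusted p = 0.0579) and of 0.87 with the replicate as a block (edgeR adjusted p = 0.0336).

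Meiotic genes were lower as single genes more than as a list. Of 36 detected genes 7 were lower and 2 higher in round spermatids, with a median of -0.34, and of 34 tested at PND30 13 were called lower and 3 higher, and 12 and 5 with the replicate as a block. Mlh3, a crossover protein, stood at 18.2, 23.1 and 18.3 CPM against 80.6, 81.4 and 91.9 CPM, and fell by 2.96 at PND30 (edgeR adjusted p = 0.0103). Hormad1 stood at 89.8, 133 and 82.8 CPM against 283, 315 and 275 CPM. Cdk1, the kinase of meiotic entry into metaphase, stood at 66.1, 82.3 and 55.2 CPM in round spermatids, and its level in other cells is not given here. At PND30 Cdk1 fell by 2.02 (edgeR adjusted p = 0.0103), with 42.63 and 31.95 CPM in 1N and 140.2 and 195.5 CPM in 4N. For Mlh3 and Hormad1 the groups did not overlap, and the share of all genes without overlap is not given here. Hspa2, a chaperone of pachytene spermatocytes, stood at 525, 483 and 542 CPM against 699, 668 and 689 CPM. Rec8, the meiotic cohesin subunit, was 1 of the 2 higher genes, at 79.0, 59.1 and 71.9 CPM against 5.16, 3.24 and 5.49 CPM, and rose by 2.15 at PND30 (edgeR adjusted p = 0.0273).

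Genes known for spermatogonia went in both directions. Gfra1, the GDNF receptor of spermatogonial stem cells, stood at 41.3, 43.3 and 43.8 CPM in round spermatids against 2.99, 2.79 and 4.20 CPM in other cells, and rose by 1.51 at PND30 (edgeR adjusted p = 0.0316). Kit stood at 9.34, 5.05 and 9.75 CPM against 1.22, 1.52 and 1.499 CPM, with a difference of 1.06 at PND30 (edgeR adjusted p = 0.146). Id4, of the stem cells too, was lower at 34.1, 24.1 and 25.4 CPM against 94.8, 86.2 and 83.8 CPM, and fell by 2.703 at PND30 (edgeR adjusted p = 0.0103). Over the list of 17, 4 genes were higher and 1 lower, and of 13 tested at PND30 1 was called higher and 2 lower, and 2 and 2 with the block. These counts lie near the shares over all genes, 15.0% higher and 5.53% lower, and at PND30 14.1% and 12.4%. Of the somatic lists, 0 of 12 Sertoli genes, 0 of 10 Leydig and peritubular genes and 1 of 12 blood and endothelial genes were higher, and 1 was lower, Star of the Leydig list. Star, an enzyme partner of steroid synthesis, was also the 1 gene called lower among 6 Leydig and peritubular genes tested at PND30, and 0 were called higher. Star was low in both gates, at 0.4707 and 0.1785 CPM in 1N and 3.58 and 4.45 CPM in 4N. By edgeR 0 of 8 Sertoli and 0 of 10 blood and endothelial genes were called at PND30, with 0 at an unadjusted p under 0.05 and 0 by DESeq2. With the replicate as a block 2 blood genes were called higher in 1N, the globins Hba-a1 at 1.74 (edgeR adjusted p = 0.0174) and Hbb-bs at 1.69 (edgeR adjusted p = 0.0264).

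Of 989 detected X-linked genes 342 were at least 2-fold higher in round spermatids in each pool, or 34.6%, and 0 lower, and of 393 Y-linked genes 111 were higher, or 28.2%, and 0 lower, against 14.0% higher and 5.8% lower over 25792 autosomal genes. At PND30 edgeR called 219 of 603 tested X-linked genes higher in 1N (36.3%) and 1 lower, and 52 of 126 Y-linked genes higher (41.3%) and 0 lower, against 13.1% and 12.9% of autosomal genes. The median log2 difference between the gates was 1.95 for X-linked, 1.87 for Y-linked and 0.03 for autosomal genes. The X-linked gene called lower was Gm14698, at 79.8 and 51.6 CPM in the 1N sums against 169 and 171 CPM in the 4N sums.

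The share of all UMIs gave the same picture without gene thresholds. X-linked UMIs were 1.65, 1.72 and 1.69% of the UMIs of round spermatids in PND35 replicate 1, PND35 replicate 2 and Adult replicate 2, against 0.248, 0.243 and 0.265% in other cells. Y-linked UMIs were 0.207, 0.223 and 0.199% against 0.0131, 0.0114 and 0.0138%. The groups lay far apart and the pools within a group close together. Adult replicate 1 differed, with 2.62% X-linked and 0.175% Y-linked UMIs in its 5 round spermatids and 1.76% and 0.0341% in its other cells, the pool with high Sertoli and Leydig genes. At PND30 the X-linked share was 1.71 and 2.17% in 1N, 1.58 and 1.18% in 2N and 0.692 and 0.373% in 4N. Mitochondrial UMIs ran the other way, at 0.433, 0.442 and 0.464% in round spermatids and 0.749, 0.756 and 0.767% in other cells.

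**Figure D3:**
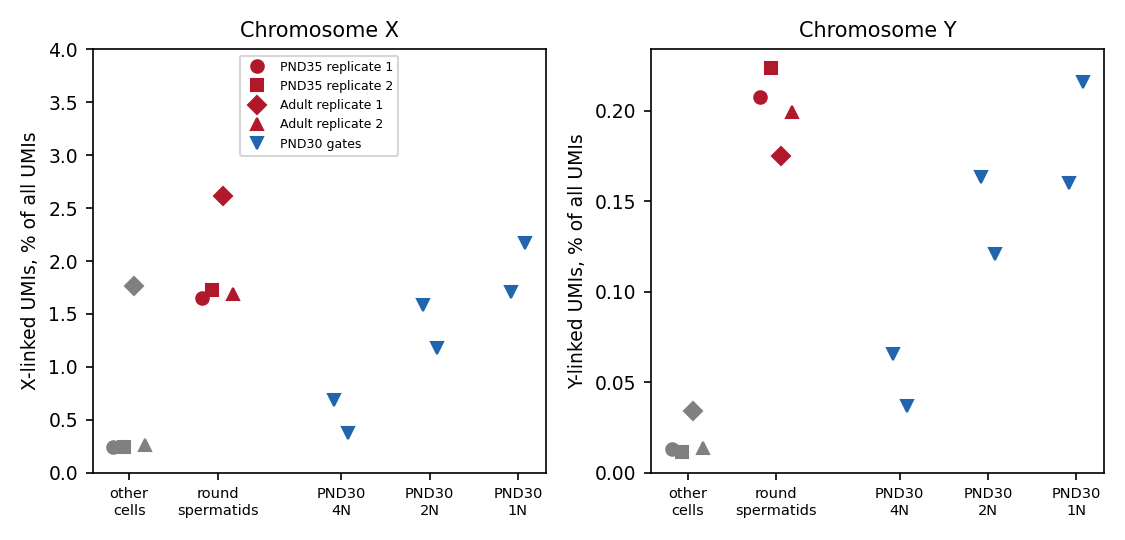
The y axes give the share of all UMIs from X-linked genes (left) and Y-linked genes (right), with 1 point for each pool of other cells (grey) and round spermatids (red) and for each replicate of the PND30 gates (blue). Round spermatids of PND35 and Adult replicate 2 stand at 1.65 to 1.72% for X and 0.199 to 0.223% for Y.

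Across single round spermatids within a pool, X-linked and Y-linked shares went together, with Pearson's r of 0.624 over 70 cells, 0.759 over 52 cells and 0.708 over 141 cells, as a description, since both shares come from the same library and total. Both also went with Acrv1. The cells of 100 to 250 CPM Acrv1 held 0.846, 1.23 and 0.758% X-linked UMIs, and those of 250 CPM and more held 1.92, 2.01 and 1.96%.

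The X-linked signal was spread over many genes. The 10 highest X-linked genes held 16% of the X-linked UMIs of round spermatids, and 264 X-linked genes reached 10 CPM as a mean over the pools, against 43 in other cells. Tsga8, a spermatid nuclear protein gene, led with 433, 394 and 433 CPM against 64.2, 51.9 and 69.0 CPM, and rose by 2.25 at PND30 (edgeR adjusted p = 0.0103). Slxl1, of the multicopy Slx family, which acts on the sex chromosomes after meiosis, stood at 363, 344 and 362 CPM against 39.8, 31.7 and 41.3 CPM. The 10 highest Y-linked genes held 37.9% of the Y-linked UMIs. Sly, the multicopy Y-linked counterpart of Slx, stood at 127, 139 and 125.3 CPM against 3.36, 2.85 and 4.999 CPM, and rose by 2.21 at PND30 (SE 0.44, edgeR adjusted p = 0.0143). Eif2s3y, a translation factor gene with an X-linked copy, stood at 119, 117 and 105 CPM against 13.7, 10.4 and 8.78 CPM. Over the list of 27 detected sex-linked genes of spermatids 20 were higher and 0 lower, and of 23 tested at PND30 17 were called higher and 0 lower. Reads of the multicopy families could be split or doubled among copies, so their single values are uncertain.

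By the size of the difference, the 10 highest genes with a mean of at least 5 on log2 CPM were Akap14, Gm27227, Gm5169, Sly, Gm6117, Gm6880, Gm11482, 4933404G15Rik, Catsper1 and 1700047F07Rik. All of them but Gm6117 were called higher in 1N at PND30. Gm6117 differed by 1.79 (edgeR adjusted p = 0.0695), and by 1.99 with the replicate as a block (edgeR adjusted p = 0.00105). Akap14, the X-linked gene of an anchoring protein of ciliary axonemes, stood at 63.9, 63.8 and 94.1 CPM against 1.19, 0.971 and 2.64 CPM. The 10 lowest were Stox1, Gm32926, Sap30, Eppk1, Mphosph8, Gm5930, Rbm46, Ckap2, Eif2b1 and Zufsp, and each of these 10 was also called lower in 1N at PND30. Mphosph8, a subunit of the silencing HUSH complex, stood at 84.2, 97.4 and 88.8 CPM against 374, 406 and 394 CPM, and fell by 2.30 at PND30 (SE 0.29, edgeR adjusted p = 0.0103). Rbm46, an RNA-binding protein of meiotic entry, stood at 29.1, 28.8 and 31.5 CPM against 133, 126 and 130 CPM.

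The 10 genes that rose most from 4N to 1N at PND30 were Klk1b26, 1700080E11Rik, Gm4665, Cby3, Defb33, Klk1b8, Car2, Gm11634, 1700020A23Rik and Oxct2b, and the 10 that fell most were Phf2, Gm14244, Zufsp, Pou5f2, Tomm34, Tdrd5, Gm21269, Gclc, Gm5878 and 4933435G04Rik. Klk1b26, a kallikrein, stood at 39.0 and 82.2 CPM in 1N and 3.26 and 4.56 CPM in 4N, a rise of 4.15 (SE 0.53, edgeR adjusted p = 0.0103), and in round spermatids of PND35 and the adult at 20.6, 20.5 and 19.4 CPM. Tdrd5, a tudor protein of the piRNA granules, stood at 7.96 and 16.4 CPM in 1N and 148 and 143 CPM in 4N, and in the later round spermatids at 44.6, 42.0 and 36.4 CPM. For both genes the later round spermatids lay between the gates. Both were named as extremes of the gates, so a less extreme level in other cells follows in part from that choice.

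Within the members, cells of higher and lower Acrv1 differed. Of 7914 genes with a mean of at least 20 CPM, 666 were at least 2-fold higher in each pool at 250 CPM Acrv1 and more, or 8.42%, and 262 were lower, or 3.31%. Acrosome genes were 10 of 29 higher and 1 lower, with a median log2 difference of 1.22, and surface genes 8 of 18 higher and 0 lower, while genes of nuclear condensation were 1 of 18 higher. Spam1 stood at 135, 151 and 167 CPM in the cells of high Acrv1 and at 15.3, 22.6 and 21.1 CPM in the others. Phf2, a histone demethylase, stood at 19.3, 14.1 and 18.4 CPM against 71.2, 46.5 and 90.5 CPM. Prm1 did not follow Acrv1, at 478, 417 and 601 CPM against 339, 428 and 589 CPM. The 80 cells of 100 to 250 CPM were 20 of 70, 19 of 52 and 41 of 141 members of their pools.

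Prm1 ordered the members within each pool, and the order was split into 3 groups of equal size, called Prm1-low, Prm1-middle and Prm1-high. In PND35 replicate 1 the Prm1 medians of these groups were 72.0, 243 and 672 CPM, with a highest cell of 5170 CPM. In PND35 replicate 2 they were 117, 180 and 303 CPM, with a highest cell of 11230 CPM, and in Adult replicate 2 they were 260, 407 and 909 CPM, with a highest cell of 17270 CPM. The groups of 1 pool are therefore not matched with those of another. Acrv1 itself showed no common order over the 3 groups, with medians of 356, 359 and 300 CPM, of 258, 345 and 263 CPM, and of 322, 332 and 361 CPM in the 3 pools.

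**Figure D4:**
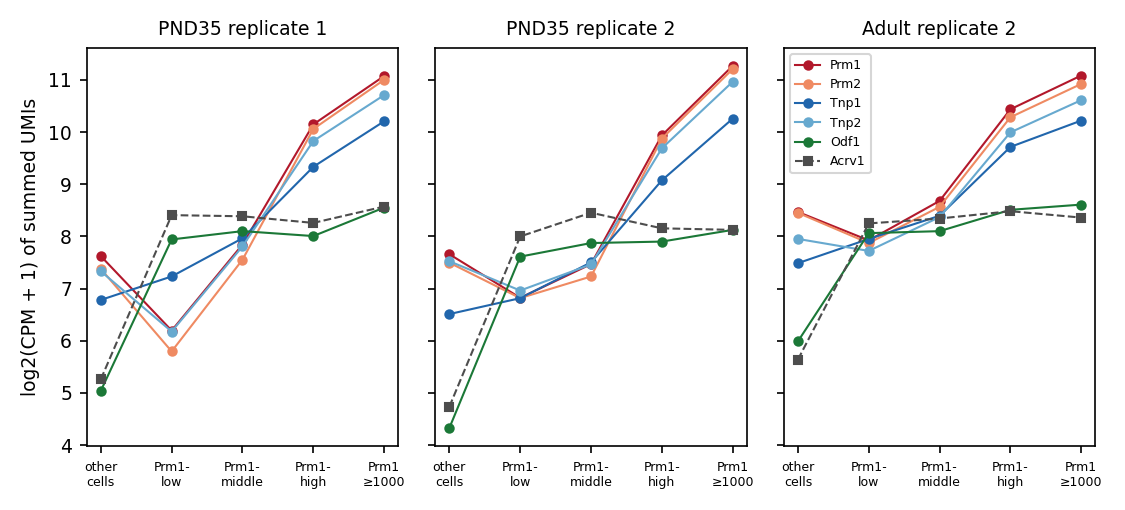
Each panel is 1 pool, with summed CPM as log2(CPM + 1) on the y axis for the other cells, the Prm1-low, Prm1-middle and Prm1-high round spermatids and those of at least 1000 CPM Prm1. Prm1, Prm2, Tnp1 and Tnp2 are lower in the Prm1-low than in the Prm1-high group, Prm1 from 72.3 to 1133 CPM in PND35 replicate 1, while Acrv1 and Odf1 differ mainly between the other cells and the Prm1-low group.

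Of 7939 genes with a mean of at least 20 CPM, 579 were at least 2-fold higher in the Prm1-high than in the Prm1-low group of each pool, or 7.29%, and 0 lower, or 0.0%. Without PND35 replicate 2 the lower count was 148. The 10 with the largest difference were 4921517D22Rik, Agpat2, Spata31d1b, 4930479H17Rik, Itpr3os, Klk1b26, Gm136, Oxct2a, Slc22a3 and Acot12. Since Prm1 set the order, these counts describe it. The same order in the Acrv1-high 1N cells of PND30 gave 898 of 6715 genes higher, or 13.4%, and 503 lower, or 7.49%.

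Of the 579 genes, 98 were at least 2-fold higher when cells of at least 1000 CPM Prm1 were left out of the Prm1-high group, which then had 539, 290.1 and 711 CPM Prm1. Cells of at least 1000 CPM Prm1 numbered 8 of 70, 6 of 52 and 20 of 141, and are called the tail. Against the other members 1150 of 8075 genes were at least 2-fold higher in each pool, or 14.2%, and 454 lower, or 5.62%. The tail shared 568 of its higher genes with the 579, which is 98.1% of these and 49.4% of its own. In the Acrv1-high 1N cells of PND30, where 31 of 163 and 45 of 80 cells had at least 1000 CPM Prm1, 968 of 6640 genes were higher, or 14.6%, and 1234 lower, or 18.6%. Of the 1150 genes 998 were measured in these PND30 cells, and 848 of them (85.0%) were higher there too and 0 lower, and of the 454 lower genes 358 were measured, with 322 (89.9%) lower and 0 higher. Both tails were chosen by Prm1, so that they share the rule but no cell.

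Among the lists, nuclear condensation had the most higher genes in the tail. Of its 16 measured genes 10 were higher and 0 lower, Prm1, which chose the cells, being 1 of them, with a median log2 difference of 2.10 against -0.31 over all genes, and of 12 late genes of elongating spermatids, Prm1 again included, 9 were higher and 0 lower. The same 12 late genes counted 9 higher and 0 lower in round spermatids against other cells, and 12 were called higher in 1N at PND30. Tnp1 stood at 1181, 1223 and 1192 CPM in the tail against 232, 166 and 326 CPM in the other members. Car2, a carbonic anhydrase, stood at 299, 319 and 233 CPM against 11.6, 5.77 and 17.2 CPM. Tssk6, a kinase needed for chromatin condensation, showed a mean difference of 3.67, and H2al2a, a histone variant of the transition, one of 3.46. Calr3, a calreticulin of the testis, stood apart in the surface list with 3.18. Acrosome genes were 1 of 28 higher and 1 lower, and flagellar genes 2 of 38 higher and 1 lower.

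By size the 10 genes highest in the tail were Scara5, 1700084D21Rik, Sdc3, Odf3b, 4930512H18Rik, Zc2hc1b, Col15a1, Gm16231, Mgat4e and Gm4665. The 10 lowest were Ssxb1, Gm6117, Ssxb2, 4930449I24Rik, Gm10220, 1700021F02Rik, Hsd17b4, Gm6588, Gm6370 and Gm7361. Most of the latter were high in round spermatids as a whole and low in the tail, such as Ssxb1, an X-linked gene of the SSX family, at 62.2, 89.4 and 59.0 CPM in round spermatids against 2.99, 2.76 and 3.74 CPM in other cells, and at 3.23, 3.68 and 11.2 CPM within the tail. Spam1 was lower in the tail too, at 15.3, 15.8 and 44.9 CPM against 117, 114 and 146 CPM in the other members. Spam1 thus ran in opposite directions along Acrv1 and along Prm1.

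Prm1 was found in cells that are not round spermatids by Acrv1, and the make-up of that signal was measured. In the Prm1-low group the summed Prm1 level was 72.3, 112 and 242 CPM, below the 196, 201 and 353 CPM of the other cells of the same pools. Among the other cells, 9 of 297, 6 of 280 and 25 of 306 reached 1000 CPM Prm1, with median Acrv1 of 43.9, 29.5 and 49.4 CPM, and these cells held 12.9, 12.6 and 29.3% of the Prm1 UMIs there. Without them the other cells still had 172, 179 and 266 CPM. The ratio of Tnp1 to Prm1 in these remaining cells was 0.574, 0.446 and 0.520, close to that of the tail at 0.548, 0.496 and 0.549, whereas the Prm1-low round spermatids had 2.07, 0.996 and 1.02. The ratio of Odf1 to Prm1 was 0.176, 0.0974 and 0.191 in the remaining other cells, 0.174, 0.113 and 0.180 in the tail, and 3.39, 1.73 and 1.10 in the Prm1-low group. Prm1 divides both ratios and also chose the tail and the Prm1-low group. Low ratios in the tail and high ones in the Prm1-low group thus follow from that choice. The likeness to the tail therefore does not tell where the Prm1 of the other cells came from. In PND10 to PND14 cells the median of Prm1 was 0 and the mean 15.9 CPM. Free RNA from late spermatids in the cell suspension was not measured, and its part in the low levels of Prm1 and of other spermatid genes was not tested.

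Between adult and PND35 round spermatids a few single genes differed, none of them in a list. The comparison set the summed UMIs of Adult replicate 2 against those of PND35 replicates 1 and 2, so that the lone adult pool was taken to vary like the PND35 pools and pool and age cannot be told apart. EdgeR's quasi-likelihood test called 20 of 20913 genes higher in the adult, or 0.0956%, and 18 lower, or 0.0861%, while 1174 had an unadjusted p under 0.05. Of the 299 listed genes tested 0 were called by edgeR and 0 by DESeq2, and at an unadjusted p under 0.05 19 were higher and 9 lower. Of those 19 higher genes 8 were among the 18 of nuclear condensation, a list with a median log2 difference of 0.34 against -0.00 over all genes. Tex36 differed by 0.16 on the log2 scale (SE 0.14, edgeR adjusted p = 0.960) and Prm1 by 0.51 (SE 0.11, edgeR adjusted p = 0.171), neither past the threshold.

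Most of the called genes were unnamed transcripts, 14 of the 20 higher and 10 of the 18 lower carrying a Gm or Rik name. 1700101I19Rik, at chr1:34579202-34579711, stood at 72.4 and 79.5 CPM in the PND35 pools and at 0.0171 CPM in Adult replicate 2, which is 1 UMI of 58367216 against 4365 of 57731289, a ratio of 4413 with a counting interval of 792 to 174347 (edgeR adjusted p = 7.71e-07). The other cells of the same pools showed the same split for it, at 77.1 and 64.6 CPM against 0.0155 CPM, and the 5 round spermatids of Adult replicate 1 stood at 35.2 CPM. 4930568A12Rik, on the same chromosome, stood at 44.8 and 58.6 CPM against 0.685 CPM, with 52.6 CPM in Adult replicate 1 (edgeR adjusted p = 7.41e-05). The 4 lower genes on chromosome 1 lay between positions 34477167 and 36011894 of GRCm38, where 11 genes were tested and 4 called. The called genes themselves set both ends of this span, so 4 of 11 cannot be read as a share for the region.

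Of the higher genes, Gm10800, on chromosome 2, stood at 21.2 and 21.5 CPM at PND35 and 169 CPM in Adult replicate 2, a rise of 3.02 (SE 0.26, edgeR adjusted p = 8.16e-05), with 348 CPM in the 5 cells of Adult replicate 1. Gm10801, Gm10717, Gm10718, Gm10719 and Gm10722, named here after their values were seen, were also called higher, and reads of near-identical predicted genes cannot be assigned with certainty. Nmnat3, an enzyme of mitochondrial NAD synthesis, stood at 66.4 and 64.2 CPM against 165 CPM (edgeR adjusted p = 0.0154), but at 22.9 CPM in Adult replicate 1. 1700016K05Rik stood at 104 and 101.3 CPM against 267 CPM, and at 33.5 CPM in Adult replicate 1 (edgeR adjusted p = 0.00132). Many of these differences were not particular to round spermatids. In the other cells of these pools, 14 of the 20 higher and 11 of the 18 lower genes differed at least 2-fold the same way. The 5 cells of Adult replicate 1 lay on the adult side of both PND35 pools for 17 of the 20 higher and 10 of the 18 lower genes. The share over all tested genes was not computed for either count. Both therefore describe the called genes only, and the second cannot be read as a replication. With those cells added as a second adult sum 0 genes were called by edgeR, with 705 at an unadjusted p under 0.05. With cells of at least 1000 CPM Prm1 left out, 2 genes were called higher and 2 lower, while the log2 differences of Nmnat3, Mrps5 and 1700016K05Rik were 1.37, 1.495 and 1.38.

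**Figure D5:**
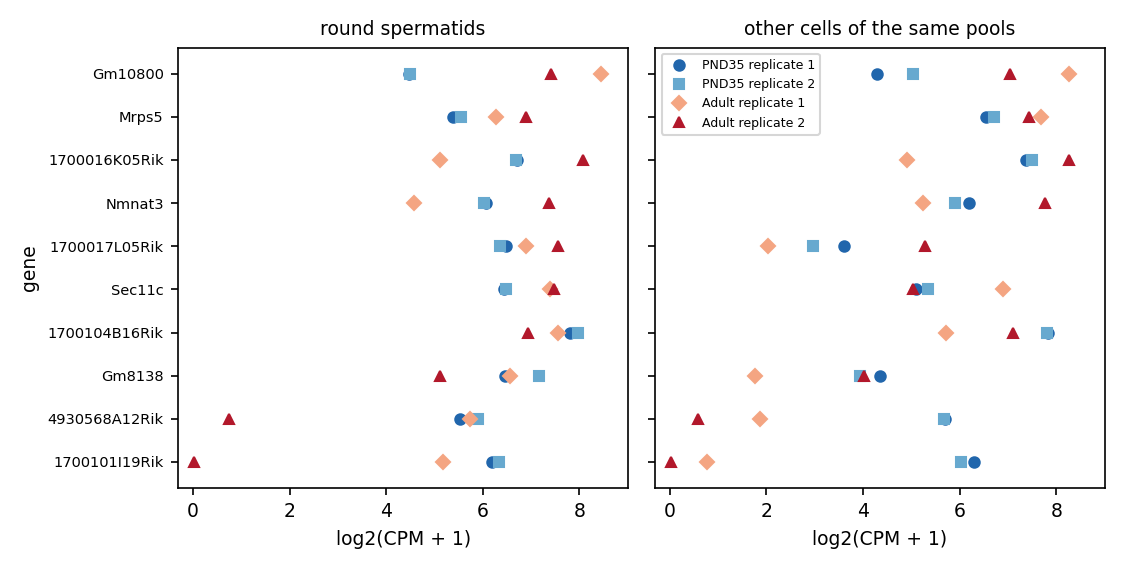
Levels of 10 genes called between adult and PND35 round spermatids, as log2(CPM + 1) on the x axis, with 1 point per pool in round spermatids (left) and in the other cells of the same pools (right). 1700101I19Rik and 4930568A12Rik are near 0 in Adult replicate 2 in both panels, and Gm10800 is high in both adult pools.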

How the data were processed

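Single cells had been profiled by a modified STRT-seq protocol, and the authors deposited UMI counts per gene and cell with a table of each cell's gene and transcript numbers. The submitters' processing notes name CASAVA 1.8, STAR, Subread, featureCounts and UMI-tools, and strand use is not given in the sources used here. Copies of multigene families, overlapping genes and antisense genes are therefore uncertain. Counts of 3′ tags carry no length scaling, so levels were compared within a gene. Of the cell columns, 8800 were not used.

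Time-point and replicate came from the authors' cell names, since the sample labels give library names only. Cells with over 2000 genes and 10000 to 1000000 transcripts were kept, and those of at least 100 CPM Acrv1 were members. UMIs were summed per pool, leaving out sums of fewer than 10 members. No doublet caller was run, since cells were picked or sorted singly. Because the rule read Acrv1, differences between members and other cells were described on log2(CPM + 1), as at least 2-fold one way in each pool. PND30 gates, and adult against PND35, were tested with edgeR 4.0.16 (quasi-likelihood, TMM, filterByExpr, Benjamini-Hochberg) in R 4.3.3, with DESeq2 1.42.0 and limma 3.58.1 as alternatives. The study's sample table gives 1 animal per PND30 replicate, so gates of 1 replicate are paired, and their deviations from the gate means correlated at 0.145. The fit had no block, and blocked values are given beside some of the results they change. Scripts were tested on simulated data. Named genes were the 10 largest in each direction among those past the rule at a minimum mean level. Members and gene lists were chosen with earlier results of these data known. Promoters came from RefSeq on GRCm38.p6.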

Additional observations from a re-analysis of the deposited data

Results flagged for a closer look

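Each quantity below was tested for 1 pool far from the other 3, by the gap to the nearest pool over the range, against Dixon's 95% critical value. Of 23 quantities tested 12 passed, where chance gives about 1 in 20, and in all 12 the pool was Adult replicate 1. In its 5 round spermatids X-linked UMIs were 2.62% and mitochondrial UMIs 0.786%, and the Sertoli list summed to 1561 CPM, the Leydig and peritubular list to 2210 CPM, the blood and endothelial list to 162 CPM and the spermatogonial list to 572 CPM. In its other cells X-linked UMIs were 1.76%, Y-linked UMIs 0.0341% and mitochondrial UMIs 1.44%, with 1309 CPM of the Sertoli list, 1325 CPM of the Leydig and peritubular list and 980 CPM of the spermatogonial list. The 12 quantities come from the same cells and are not independent.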

How the results depend on the processing

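Adult against PND35 gave 20 genes higher and 18 lower, and 34 and 48 by DESeq2, 84 and 63 without the filter on low counts, 35 and 34 at 50 CPM Acrv1, 1 and 2 at 200 CPM, 9 and 11 at 250 CPM, 3 and 4 in the Prm1-low group, 435 and 180 in the Prm1-high group, 2 and 2 below 1000 CPM Prm1, 0 and 0 by limma on cell means (902 at an unadjusted p under 0.05), 0 and 0 by edgeR with pools from 5 cells (705), and 33 and 2 with those pools and a replicate block, whose numbers join different animals, where 1700016K05Rik and Nmnat3 turned to -0.112 and -0.0795. Leaving out a pool there left no spread or no comparison and gave no value. The PND30 gates gave 2697 higher and 2377 lower, with 4154 higher by DESeq2, 4067 without the filter, 3691 and 2467 under the replicate block, and 0 to 3569 higher and 0 to 3045 lower leaving out 1 sum. The block moved the count of calls of a list by over 1.5 times for meiotic, spermatogonial and blood genes higher, as given above, and for no other list. Of X-linked genes it called 322 higher in place of 219, and of Y-linked genes 67 in place of 52. Members against other cells gave 4320 to 4582 higher and 1614 to 2067 lower without 1 pool, and lower counts of 4 at 50 CPM, 605 against cells under 10 CPM and 2498 at 250 CPM. By Prm1, a split at the median gave 346 higher, the tail 1150 and 454, the Prm1-high group without the tail 98, thinned cells 9 lower, and leaving out 1 pool 583 to 731 higher and 0 to 148 lower (148 without PND35 replicate 2). Acrv1-high shares at 50 and 200 CPM were 97.9 and 70.6% in 1N and 83.4 and 55.6% in 2N, and 35.3% at 50 CPM in 4N. As means over cells, X-linked shares were 1.61% in members and 0.312% in other cells, and Y-linked 0.193% and 0.0156%. Causes were not tested. Alternatives added after seeing the data were the 250 CPM, 1000 CPM Prm1 and 5-cell settings.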
